A study of Mus musculus with 13 samples.

Results

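Spectrins are long rod-shaped proteins that pair as alpha and beta chains and cross-link actin under the plasma membrane, and ankyrins are adaptors that attach this network to ion channels, transporters and adhesion molecules. The skeleton was first worked out in red blood cells, where *Sptb* and *Ank1* encode beta-I spectrin and ankyrin-R, and other members serve epithelia, muscle and neurons. In epithelia, alpha-II and beta-II spectrin and ankyrin-G line the lateral membrane, and in striated muscle beta-I spectrin and ankyrins take part in the costamere and the sarcoplasmic reticulum. Described here are 8 of the 49315 genes in the count files, namely *Sptan1*, *Sptb*, *Sptbn1*, *Sptbn4*, *Sptbn5*, *Ank1*, *Ank2* and *Ank3*, of which *Sptb* and *Ank1* were set as the erythroid pair against the other 6. These genes were selected on the WT and DKO counts that are described below, so their differences between the groups are given as a description with no p-value, and calls among them are only counted beside those of all genes.

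RNA-Seq was performed on full-thickness back skin at P4 from 3 WT mice and 3 littermates labelled as *K14Cre+Kctd1 fl/flKctd15 fl/fl* (DKO), to learn which transcripts differ when KCTD1 and KCTD15 are missing from keratinocytes. The keratin 14 promoter drives Cre in keratinocytes, and the other cells of the skin are not its target. Libraries of WT replicates 1 to 3 held 14836798, 17643043 and 17470709 counts, and those labelled DKO replicates 1 to 3 held 11263863, 14950538 and 15050299 counts. A floor of 3 counts corresponded to between 0.17 and 0.266 CPM (counts scaled to library size), which covers counting error only. The 7 epidermis libraries, 4 labelled DKO and 3 *K14Cre+Kctd15 fl/fl*, hold a count of 0 for every gene in the files used here and give no result.

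Levels below are given as RPKM, which are CPM after TMM scaling divided by the exonic length in the files in kilobases. This length joins the exons of all transcripts of a gene, so that a comparison between genes depends on the transcripts in use, which counts per gene do not show. *Kctd1* was at 8.14, 7.53 and 8.12 RPKM in the WT libraries and at 9.30, 18.1 and 13.5 RPKM in the libraries labelled DKO. *Kctd15* was at 11.4, 11.5 and 11.9 RPKM in WT and at 17.6, 23.5 and 20.6 RPKM in the libraries labelled DKO. Both targeted genes were thus higher in every library labelled DKO than in any WT library, as were 7.24% of all genes tested. This goes against a lower transcript level, summed over all exons of each gene, under that label. Counts per gene do not show whether the floxed exon is present, so they do not check the deletion. A further difference touches several results: DKO replicate 1 stands apart in skeletal muscle transcripts among others, with a summed level of 23835 CPM over 38 marker genes, against 11273 and 11250 CPM in DKO replicates 2 and 3 and 6944 to 7939 CPM in WT.

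All 8 genes passed the filter on low counts. A gene counted as called in the edgeR quasi-likelihood fit over 20168 genes if its adjusted p-value (Benjamini-Hochberg) was below 0.05 with a log2 fold change beyond 1 in either direction. This rule called 14 genes, or 0.0694% of those tested, and *Sptbn5* was the 1 gene of the 8 among them. By DESeq2, 151 genes or 0.732% were called, again with *Sptbn5* alone of the 8. The gene was not called by edgeR when DKO replicate 3 or any 1 of the 3 WT libraries was left out, settings in which 2 to 4 genes were called in all. At an unadjusted p under 0.05 in edgeR, 1512 genes or 7.5% passed. In 6 of the 8 genes every library labelled DKO lay above every WT library, as did 7.24% of all genes tested, and in 0 of the 8 every library labelled DKO lay below, as did 5.96% of all genes tested. Since the same contrast selected the genes, nothing is read from these shares. The median log2 fold change (DKO minus WT) was 0.28 over the 8 genes and 0.02 over all genes tested. Scaling mattered for the smaller differences: with total counts in place of TMM, 3 of the 8 genes, *Sptb*, *Sptbn5* and *Ank1*, had libraries labelled DKO all above WT, as did 5.86% of all genes tested, and *Sptan1* had them all below, as did 7.19%. With library sizes computed without the erythroid and muscle markers, 5 of the 8 were above, as were 6.87% of all genes tested, 0 were below, as were 6.29%, and *Ank2* now overlapped.

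Alpha-II spectrin, encoded by *Sptan1*, is the alpha chain of most cells outside the blood. Its level was 40.6, 40.2 and 37.7 RPKM in WT, the highest of the 8 genes by RPKM, and 37.0, 40.0 and 37.2 RPKM in the libraries labelled DKO, of which replicate 1 had *Sptbn1* higher. By CPM, which are not divided by length, *Sptbn1* was above *Sptan1* in every library. The groups overlapped, and the log2 fold change of −0.05 was smaller than its SE of 0.120.

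Levels were then compared between the 8 genes in WT skin. *Sptan1* at 39.5 ± 1.61 RPKM (mean ± SD, n = 3) was followed by *Sptbn1* at 36.2 ± 0.689 RPKM. *Ank3* was next at 3.75 ± 0.152 RPKM, which was 9.65-fold below *Sptbn1*. *Sptb* at 2.24 ± 0.273 and *Ank2* at 2.14 ± 0.158 RPKM had overlapping ranges, as had *Ank1* at 0.597 ± 0.0439 and *Sptbn5* at 0.557 ± 0.0529 RPKM. *Sptbn4* was lowest of the 8 at 0.124 ± 0.0363 RPKM. In the libraries labelled DKO the means kept this order but for *Sptbn5*, which at 1.82 ± 0.304 RPKM stood above *Ank1* at 1.21 ± 0.536 RPKM. The order depends on the length used. Per length of the longest GENCODE M21 transcript, chosen after the levels were seen, *Sptbn1* at 69.6 ± 1.32 stood above *Sptan1* at 65.8 ± 2.68, *Ank3* at 12.5 ± 0.507 was 5.27-fold below *Sptan1*, and *Ank2* at 5.23 ± 0.388 was 2.00-fold above *Sptb* at 2.62 ± 0.319 CPM per kilobase.

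**Figure D1:**
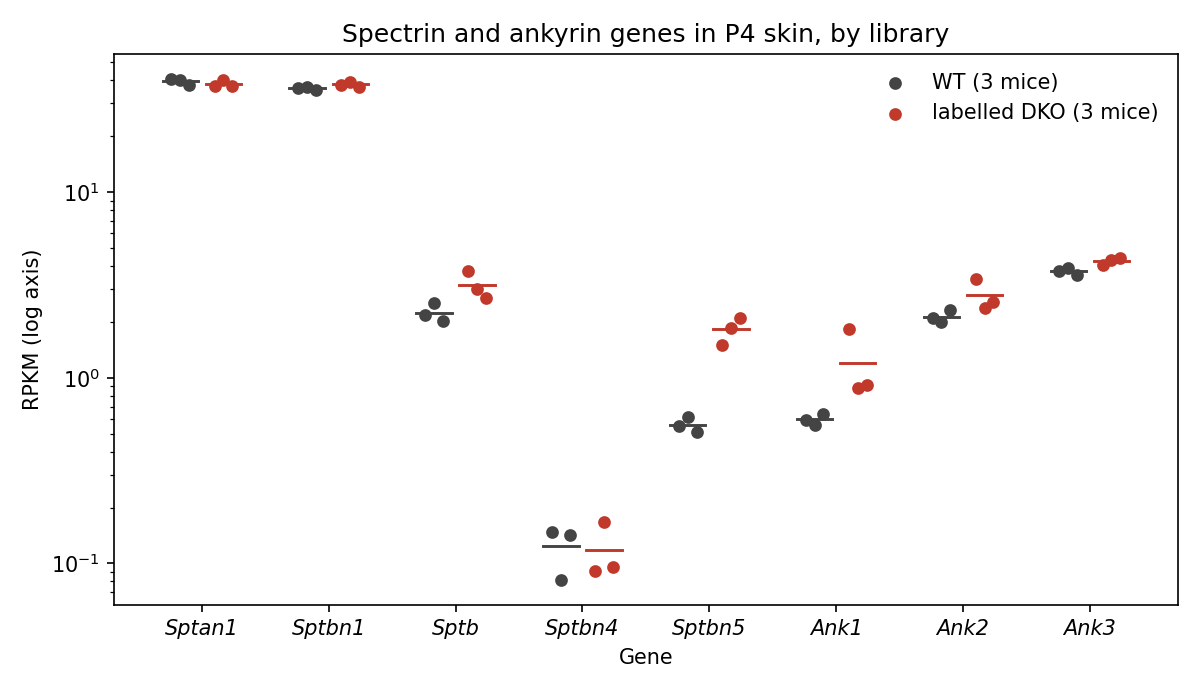
Levels of the 8 spectrin and ankyrin genes in RPKM on a log axis, with a point for each library (WT, dark; labelled DKO, red) and a bar at the mean of 3 mice. *Sptan1* and *Sptbn1* lie between 35.4 and 40.6 RPKM in both groups, while *Sptbn5* lies between 0.509 and 0.614 RPKM in WT and between 1.50 and 2.10 RPKM in the libraries labelled DKO.

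Beta-II spectrin, encoded by *Sptbn1*, is the usual partner of alpha-II in epithelia. Its level was 36.6, 36.7 and 35.4 RPKM in WT and 37.9, 39.1 and 36.9 RPKM in the libraries labelled DKO. The libraries labelled DKO were slightly higher without overlap, by a log2 fold change of 0.07 with an SE of 0.119, but overlapped WT with total counts.

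*Sptb*, the beta-I spectrin gene of red cells that is also used in skeletal muscle, was at 2.17, 2.54 and 2.01 RPKM in WT. In the libraries labelled DKO it was at 3.74, 3.02 and 2.68 RPKM. DKO replicate 1 was highest, and the lowest library labelled DKO was 1.05 times the highest WT library, so the groups were apart by a narrow margin. The log2 fold change was 0.49 with an SE of 0.169, and 0.33 without DKO replicate 1.

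*Sptbn4* encodes beta-IV spectrin of axon initial segments and nodes of Ranvier. Its counts were 21, 14 and 24 in WT and 10, 22 and 14 in the libraries labelled DKO. The groups overlapped at this depth, and the log2 fold change of −0.06 had an SE of 0.418 and turned positive in 4 of 13 alternative settings. No direction can be given for this gene.

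*Sptbn5* encodes beta-V spectrin, the largest of the beta spectrins and the vertebrate counterpart of the heavy beta chain of flies. Counts were 84, 113 and 93 in WT and 178, 263 and 330 in the libraries labelled DKO, although the latter libraries were the shallower on average. Per length this was 0.548, 0.614 and 0.509 RPKM in WT and 1.50, 1.86 and 2.10 RPKM in the libraries labelled DKO. The lowest library labelled DKO was 2.44 times the highest WT library, and the means differed 3.27-fold, with a log2 fold change of 1.71 and an SE of 0.191. DKO replicate 1, the library richest in muscle transcripts, was the lowest of the 3, unlike for *Sptb*, *Ank1* and *Ank2*. When each library was left out in turn the log2 fold change ranged from 1.59 to 1.82.

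The *Sptbn5* gene (ENSMUSG00000074899) lies on the minus strand at chr2:120046157-120085772 in GRCm38, and its 10292 exonic bases are shared with no other gene in the files. GENCODE M21 lists 2 transcripts for it with up to 53 exons and marks 0 of them as protein coding, so the counts are of transcripts from this locus and do not show a protein. The span of *Sptbn5* in that release, chr2:120041493-120085693, differs from that in the count files and overlaps the span of *Pla2g4b*. By the gene models of the count files, which give the distances here, 6 coding genes have spans within 100000 bases. These neighbors, chosen after the values of *Sptbn5* were seen, had log2 fold changes from 0.01 to 0.39. *Ehd4*, which lies 3403 bases away on the same strand, had a log2 fold change of 0.09 (SE 0.120; edgeR adjusted p = 0.944), and *Pla2g4b*, 3127 bases away on the other strand, one of 0.14 (SE 0.184; edgeR adjusted p = 0.945). The groups overlapped in 5 of the 6 neighbors. The exception was *Jmjd7* (1.58 CPM in WT, 2.08 CPM under the DKO label), above WT without overlap, as were 7.24% of all genes tested. As *Sptbn5* was selected on these values, nothing is read from its neighbors differing less. Of 5 neighbors of *Sptb*, log2 fold changes were from −0.09 to 0.40, the highest at *Rab15* with the libraries labelled DKO all above WT, and of 5 neighbors of *Ank1* 4 were tested, at −0.01 to 0.08.

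Among the ankyrins, *Ank1* encodes ankyrin-R of red cells, and its short transcripts encode small ankyrins of the sarcoplasmic reticulum. Its level was 0.596, 0.554 and 0.642 RPKM in WT and 1.82, 0.881 and 0.911 RPKM in the libraries labelled DKO. All libraries labelled DKO were above WT, with DKO replicate 1 far above the other 2. The log2 fold change was 1.01 with an SE of 0.281 and fell to 0.57 without DKO replicate 1. Of the 17 transcripts that GENCODE M21 lists for *Ank1*, the shortest has 328 and the longest 8366 bases, and counts per gene do not tell them apart. The exons of *Ank1* also share 862 bases, or 6.37% of its exonic length, with the antisense gene *Gm15816*, whose counts were 15, 5 and 9 in WT and 35, 21 and 13 in the libraries labelled DKO. Whether counting used the strand is not given in the sources used here, so reads from the shared bases cannot be told apart.

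*Ank2* encodes ankyrin-B, which places ion transporters in muscle and neurons. It was at 2.10, 2.00 and 2.31 RPKM in WT and at 3.40, 2.39 and 2.55 RPKM in the libraries labelled DKO. As for *Ank1*, DKO replicate 1 was highest, and the other 2 libraries labelled DKO were close to the highest WT library. The log2 fold change was 0.38 with an SE of 0.157, and 0.19 without DKO replicate 1. *Ank3*, which encodes ankyrin-G of epithelial lateral membranes and axon initial segments, was at 3.76, 3.90 and 3.59 RPKM in WT and at 4.03, 4.29 and 4.39 RPKM in the libraries labelled DKO. Here DKO replicate 1 was the lowest of the 3, the margin between the groups was 1.03-fold, and the log2 fold change was 0.18 with an SE of 0.112.

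The make-up of the beta spectrins and ankyrins among the 8 genes was compared next. Of the summed level of the 4 beta spectrins among them, *Sptbn1* held 92.5 ± 0.587% in WT and 88.2 ± 0.475% in the libraries labelled DKO (mean ± SD, n = 3). *Sptb* held 5.72 ± 0.576% and 7.30 ± 1.20%, and *Sptbn5* 1.42 ± 0.105% and 4.23 ± 0.786%. The *Sptbn5* share thus remained small beside *Sptbn1* in every library. Among the ankyrins, *Ank3* held 57.9 ± 2.78% in WT and 52.1 ± 7.40% in the libraries labelled DKO, *Ank2* 32.9 ± 2.18% and 33.6 ± 2.77%, and *Ank1* 9.20 ± 0.608% and 14.3 ± 4.65%. In DKO replicate 1 *Ank1* held 19.7% and *Ank3* 43.5%, whereas in DKO replicates 2 and 3 *Ank1* held 11.7% and 11.6%. The summed level of these 4 beta spectrins over that of *Sptan1* was 0.971, 0.992 and 1.01 in WT and 1.17, 1.10 and 1.12 in the libraries labelled DKO, without overlap. Per length of the longest transcript, *Sptbn5* held 0.873 ± 0.0664% (WT) and 2.65 ± 0.488% (DKO label) of these beta spectrins. *Sptb* held 3.59 ± 0.370% and 4.66 ± 0.771%. Of the ankyrins, *Ank3* held 66.8 ± 2.53% and 62.0 ± 6.67%, and *Ank1* 5.17 ± 0.394% and 8.39 ± 3.08%. In DKO replicate 1 *Ank1* held 11.9% by this length. The ratio of the 4 beta spectrins to *Sptan1* was then 1.09 to 1.13 in WT and 1.21 to 1.28 in the libraries labelled DKO.

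The erythroid pair was then set against the other 6 genes. For each library, the mean log2 level of *Sptb* and *Ank1* relative to WT minus that of the other 6 was taken. This difference was −0.07, 0.10 and −0.03 in WT and 0.87, 0.05 and 0.09 in the libraries labelled DKO. The groups overlapped, since DKO replicate 1 alone was outside the WT range. In the fit the difference was 0.38, and it was 0.07 without DKO replicate 1. With *Sptbn5* left out of the other genes, a setting chosen after its values were seen, the differences were −0.08, 0.14 and −0.06 in WT and 1.09, 0.31 and 0.41 in the libraries labelled DKO, and the groups did not overlap.

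Other red cell genes were examined beside *Sptb* and *Ank1*, and most of those tested had lower estimates under the DKO label. *Slc4a1*, the band 3 anion exchanger that ankyrin-R binds, had counts of 267, 323 and 233 in WT and 75, 159 and 49 in the libraries labelled DKO. Its log2 fold change of −1.21 (SE 0.373) was not called by edgeR (adjusted p = 0.407) or by DESeq2 (adjusted p = 0.0528). In whole skin, fewer cells of a type and less RNA per cell cannot be told apart. Of 21 erythroid markers 20 were found and 12 were tested. Estimates under the DKO label were higher for 3 and lower for 9, with a median log2 fold change of −0.16. Relative to the WT mean, the median of these 12 was −0.17, 0.27 and −0.53 on the log2 scale in DKO replicates 1 to 3. Of all genes tested, 52.9% had a higher estimate, with a median of 0.02. By edgeR 0 of the 12 were called (0.0694% of all genes). At an unadjusted p under 0.05, 0 were higher and 1 lower (7.5% of all genes). By DESeq2 0 were called (0.732% of all genes), while edgeR with no filter on low counts called *Slc4a1* (0.624% of all genes). The 20 markers found summed to 167, 187 and 183 CPM in WT and 169, 207 and 88.5 CPM in the libraries labelled DKO. *Hbb-bs* was the most abundant and *Cldn13* was at 0 in every library. *Epb42*, whose protein 4.2 binds band 3, had the next smallest p-value in the list, with a log2 fold change of −0.51 (SE 0.429; edgeR adjusted p = 0.908). The part of red cell content in the levels of *Sptb* and *Ank1* was not tested.

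Skeletal muscle markers were highest in the same library as *Ank1*, *Sptb* and *Ank2*, and so were the medians of some other marker lists. Relative to the WT mean, *Ank1* was higher by 1.60, 0.56 and 0.60 on the log2 scale in DKO replicates 1 to 3, and the median of the 38 muscle markers was higher by 1.62, 0.69 and 0.53. The medians of the other lists highest in DKO replicate 1 were 0.64, −0.11 and −0.34 for adipocyte, 0.48, 0.28 and 0.07 for fibroblast, 0.40, 0.22 and −0.09 for endothelial and 0.31, 0.31 and −0.10 for nerve and Schwann cell markers. *Sptb* was higher by 0.74, 0.43 and 0.26 and *Ank2* by 0.67, 0.16 and 0.25, whereas *Sptbn5* was higher by 1.41, 1.72 and 1.90. All 38 muscle markers had a higher estimate in the libraries labelled DKO, 30 of them without overlap, with a median log2 fold change of 0.99. Of all genes tested, 52.9% had a higher estimate and 7.24% were above WT without overlap, with a median of 0.02. By edgeR 0 were called, with 31 at an unadjusted p under 0.05 (7.5% of all genes), and by DESeq2 16 were called (0.732% of all genes). With the label number as a block, edgeR called 1, *Acta1* (log2 fold change 1.09, SE 0.163; adjusted p = 0.0396), where 0.174% of all genes were called, and with no filter on low counts it called 17, all higher, where 0.624% of all genes were called. Their summed level was 7939, 6944 and 7255 CPM in WT and 23835, 11273 and 11250 CPM in the libraries labelled DKO. *Ttn* was the most abundant, the smallest p-values were those of *Tnni2* (log2 fold change 1.23, SE 0.229; edgeR adjusted p = 0.146) and *Des* (1.30, SE 0.244; edgeR adjusted p = 0.153), and no marker was at 0 in all libraries. The part of muscle content in the levels of *Ank1*, *Sptb* and *Ank2* was not tested. By the number in the labels, WT replicate 3 and DKO replicate 1 share 40972, with *Ank1* at 0.642 and 1.82 RPKM, and the other 4 mice share 47347, with *Ank1* at 0.596 and 0.554 RPKM in WT and 0.881 and 0.911 RPKM in the libraries labelled DKO.

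**Figure D2:**
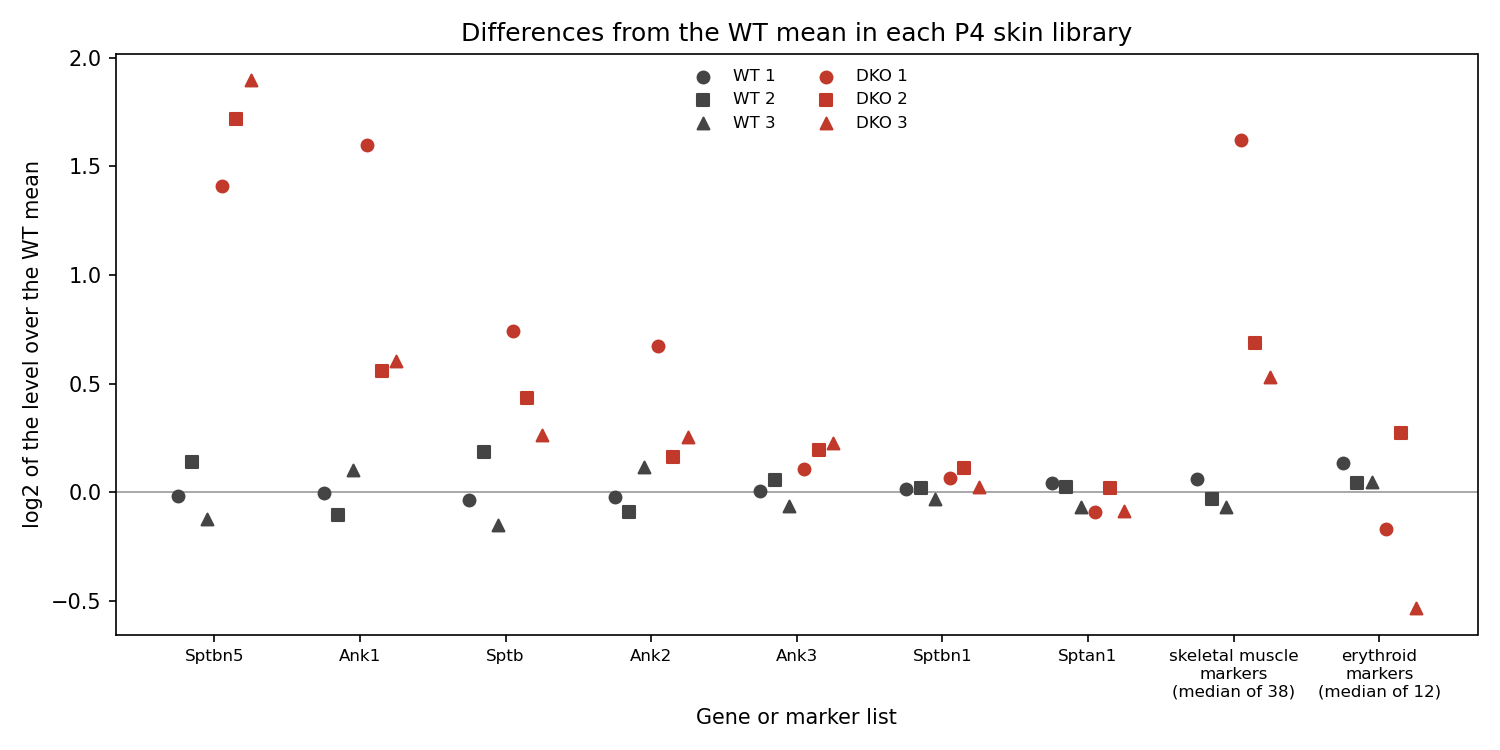
Log2 of the level in each P4 skin library over the WT mean, for 7 of the genes and for the median of the tested skeletal muscle (38) and erythroid (12) markers; each point is 1 mouse (WT, dark; labelled DKO, red; symbols mark replicates 1 to 3), and *Sptbn4* is left out for its low counts. DKO replicate 1 is the highest for *Ank1* (1.60), *Sptb* (0.74), *Ank2* (0.67) and the muscle markers (1.62), and the lowest of the libraries labelled DKO for *Sptbn5* (1.41).

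Genes outside the 8 for other parts of the membrane skeleton and for proteins that ankyrins bind were examined as a group. Of 40 such genes, 38 were tested, and 25 had higher and 13 lower estimates under the DKO label, with a median log2 fold change of 0.10, against 52.9% higher and a median of 0.02 over all genes tested. By edgeR 0 of the 38 were called, with 5 higher and 3 lower at an unadjusted p under 0.05, and by DESeq2 2 were called, namely *Tmod1* and *Scn4a*. Over all genes, 7.5% passed the unadjusted p and DESeq2 called 0.732%. Of 19 genes for other parts of the membrane skeleton, 12 were higher and 7 lower, with a median of 0.09. The smallest p-values there belonged to 3 tropomodulins, which cap the pointed ends of actin filaments. *Tmod1* was at 2.38, 2.51 and 2.39 RPKM in WT and 7.86, 3.30 and 4.15 RPKM in the libraries labelled DKO (log2 fold change 1.07, SE 0.291; edgeR adjusted p = 0.339; DESeq2 adjusted p = 0.0441). *Tmod4* (0.76, SE 0.286; edgeR adjusted p = 0.536) and *Tmod2* (0.74, SE 0.372; edgeR adjusted p = 0.749) were not called by either tool. In all 3, DKO replicate 1 was the highest library. The fourth tropomodulin gene of the list, *Tmod3*, had a log2 fold change of 0.00 (SE 0.156) with overlapping groups.

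Of 21 genes for membrane proteins and anchors that ankyrins bind, 19 were tested, with 13 higher and 6 lower and a median of 0.16. *Scn4a*, the skeletal muscle sodium channel gene, was at 0.782, 1.08 and 1.18 RPKM in WT and 3.76, 2.18 and 1.43 RPKM in the libraries labelled DKO (log2 fold change 1.27, SE 0.328; edgeR adjusted p = 0.298; DESeq2 adjusted p = 0.0170). The libraries labelled DKO were above WT with replicate 1 highest, as for *Ank1*. After *Scn4a* and *Slc4a1*, the smallest p-value there was that of *Nrcam*, a cell adhesion molecule gene, with a log2 fold change of −0.53 (SE 0.195; edgeR adjusted p = 0.528; DESeq2 adjusted p = 0.480). *Slc4a1* and *Rhag* are shared with the erythroid list and *Cdh1* with the keratinocyte list. Of the membrane skeleton genes above, *Epb42* is shared with the erythroid list.

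For other cell types of the skin, lists of markers were examined beside the 8 genes. Of all genes tested, 52.9% had a higher estimate under the DKO label. Keratinocyte markers, of which 10 of 15 were higher, summed to 12985 to 13030 CPM in WT and to 13240, 17613 and 14339 CPM in the libraries labelled DKO, with *Dsp* the most abundant. Fibroblast markers, of which 9 of 9 were higher, summed to 15015, 17096 and 18557 CPM in WT and 20779, 25430 and 17212 CPM, with *Col1a1* the most abundant. The fibroblast sums overlapped between the groups. The keratinocyte sums did not. Of the 15 genes, however, only *Krt1* and *Krt10* were above WT in every library labelled DKO (7.24% of all genes tested). *Krt15* and *Dsg1a* were below WT in every such library (5.96% of all genes tested). The median of these 15 relative to the WT mean was −0.31, 0.48 and 0.00 on the log2 scale in DKO replicates 1 to 3, to both sides of WT. Endothelial markers (10 of 12 higher) summed to 401, 406 and 419 CPM in WT and 531, 475 and 373 CPM, with *Cdh5* the most abundant, and nerve and Schwann cell markers (8 of 12 tested higher) to 220, 224 and 188 CPM in WT and 188, 261 and 186 CPM, with *Egr2* the most abundant. Adipocyte markers (5 of 8 higher) summed to 956, 998 and 1426 CPM in WT and 1653, 972 and 871 CPM, with *Lpl* the most abundant, and leukocyte markers (7 of 9 tested higher) to 129, 135 and 152 CPM in WT and 123, 189 and 129 CPM, with *Csf1r* the most abundant. The neurofilament genes of the nerve and Schwann cell list had too few counts for a test. Counts in WT and in the libraries labelled DKO were 0, 0 and 1 and 1, 1 and 0 for *Nefl*, 0, 0 and 1 and 1, 16 and 3 for *Nefm*, and 4, 6 and 9 and 3, 2 and 4 for *Nefh*. By edgeR 0 genes of these 6 lists were called (0.0694% of all genes). At an unadjusted p under 0.05, 1 to 3 genes passed in each list (7.5% of all genes). By DESeq2 *Cfd* of the adipocyte list was called (0.732% of all genes). With edgeR, *Cfd* was also called with no filter on low counts (0.624% of all genes). Without DKO replicate 2, edgeR called *Tubb3* of the nerve list lower (0.158% of all genes). The smallest p-values were those of *Krt1* and *Krt10*, *Pdgfra* and *Twist2*, *Pecam1* and *Vwf*, *Tubb3* and *Ncmap*, *Cfd* and *Lep*, and *Csf1r* and *Cd3e* in these lists. The part of these cell types in the levels of the 8 genes was not tested.

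To describe which patterns over the 6 libraries were most alike, log2 CPM were correlated (Pearson r, n = 6). The difference between WT and the libraries labelled DKO, on which the 8 genes were selected, was left in, so these values are a description. Among the 8 genes, *Ank1* and *Ank2* were most alike (r = 0.983), followed by *Sptbn5* and *Ank3* (r = 0.944) and by *Sptb* and *Ank1* (r = 0.875). By r, the erythroid pair was thus less alike than *Ank1* and its paralog *Ank2*. DKO replicate 1 was the highest library for *Ank1*, *Ank2* and *Sptb* (1.60, 0.67 and 0.74 above the WT mean on the log2 scale). The values of r depend on it, and nothing is read from their order. Over 13258 other genes at a mean of at least 5 CPM, the nearest to *Ank1* were *Mybpc1*, *Zfhx4* and *Entpd1* (r from 0.996 to 0.998), and the nearest to *Sptb* were *Adssl1*, *Mybpc2* and *Hhatl* (r from 0.978 to 0.982). *Mybpc1* and *Mybpc2* encode myosin-binding protein C of slow and fast skeletal muscle and belong to the 38 markers. *Ank2* was nearest to *Akap6*, *Ankrd23* and *Rab22a* (r from 0.995 to 0.997), and *Sptbn5* to *Fgfr2*, *Elk4* and *Wscd2* (r from 0.986 to 0.991). The nearest to *Ank3* were *Lrrc8e*, *Sprr2a3* and *Ubp1*, to *Sptan1* *Ank*, *Faah* and *Atp11a*, to *Sptbn1* *Mthfd1l*, *Fars2* and *Neurl1a*, and to *Sptbn4* *Pole*, *Bpgm* and *Casp6*. *Bpgm* belongs to the erythroid markers, and *Sptbn4* itself, at 0.783 to 1.60 CPM, lies below the level asked of the genes searched. *Ank* is the progressive ankylosis gene and no ankyrin.

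Promoter sequences were examined next, where held. RefSeq promoters of GRCm38.p6, from 250 bases before to 50 bases after a transcript start, were held for 6 of the 8 genes in 13 windows. *Ank1* and *Ank3* had no window and were not searched. Of the erythroid pair, only *Sptb* was thus searched, in 1 window. Each was searched on both strands for GCCNNNGGC, a consensus of AP-2 factors, whose activity KCTD1 and KCTD15 inhibit, for the E-box CANNTG bound by myogenic and other helix-loop-helix factors, for the GATA motif AGATAA and for CCACACCC, a CACC box of erythroid promoters. Of 32851 promoters of 300 bases, 16.6% held the AP-2 letters, 72.3% an E-box, 11.2% the GATA letters and 3.56% the CACC box. The AP-2 letters were found in 1 of the 13 windows, at *Sptbn4*, and E-boxes in 10 of the 13, while the GATA and CACC letters were found in 0 of the 13. A match describes the letters of a window and is no evidence of binding. Shown are the windows of *Sptbn5* (chr2:120088864-120089163, minus strand), whose RefSeq start lies 3141 bases upstream of the gene model that was counted, of *Sptb* (chr12:76710498-76710797, minus strand) and of the most upstream start of *Ank2* (chr3:127499066-127499365, minus strand), 5′ to 3′ with E-boxes in capitals. The *Sptbn5* and *Sptb* windows hold 1 E-box each and that of *Ank2* holds 0.
*Sptbn5*: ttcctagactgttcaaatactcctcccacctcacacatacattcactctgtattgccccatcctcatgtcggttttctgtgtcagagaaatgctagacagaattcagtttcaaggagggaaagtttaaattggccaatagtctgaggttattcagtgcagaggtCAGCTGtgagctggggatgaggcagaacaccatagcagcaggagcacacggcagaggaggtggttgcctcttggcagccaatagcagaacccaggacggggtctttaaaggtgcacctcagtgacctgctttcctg
*Sptb*: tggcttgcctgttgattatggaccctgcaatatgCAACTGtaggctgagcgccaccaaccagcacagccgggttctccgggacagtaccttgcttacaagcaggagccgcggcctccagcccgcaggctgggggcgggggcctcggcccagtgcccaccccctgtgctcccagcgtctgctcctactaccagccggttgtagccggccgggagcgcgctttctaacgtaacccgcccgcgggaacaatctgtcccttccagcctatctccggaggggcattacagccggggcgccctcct
*Ank2*: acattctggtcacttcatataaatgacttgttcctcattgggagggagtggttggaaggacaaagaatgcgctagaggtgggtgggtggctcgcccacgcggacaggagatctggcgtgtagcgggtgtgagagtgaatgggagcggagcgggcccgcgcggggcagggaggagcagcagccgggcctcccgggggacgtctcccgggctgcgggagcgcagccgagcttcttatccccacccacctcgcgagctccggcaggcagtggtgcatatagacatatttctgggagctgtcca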

How the data were processed

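Total RNA of full-thickness P4 back skin was depleted of rRNA and sequenced as paired-end reads, with 1 library per mouse. Per the submitters' processing notes, the authors used Trimmomatic 0.36, STAR 2.5.2b, and featureCounts of Subread 1.5.2 with GRCm38; the deposited values are whole-number counts per gene without normalization. The strand setting, the annotation release and the treatment of reads that map to several genes, which could affect paralogs, are not given in the sources used here. Symbols were found for 48970 of 49315 identifiers (99.3%) and for 175 of 176 genes on the lists. In R 4.3.3, counts were filtered with filterByExpr, scaled by TMM and tested with edgeR 4.0.16 (quasi-likelihood F test, Benjamini-Hochberg adjustment), and with DESeq2 1.42.0 as an alternative; both were tested on simulated data. RPKM were computed from TMM-scaled counts and the lengths in the files. The SE of a log2 fold change is its size over the square root of F. Groups were taken from the labels; the 4 and 3 epidermis libraries, from 3-week-old mice, hold counts of 0.

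The members and lists were chosen with earlier results of these data known. Named in the text are the 8 members and the targeted genes; in each partner list the called genes and the 3 with the smallest p-values; in each marker list (erythroid, skeletal muscle, nerve and Schwann cell, endothelial, keratinocyte, fibroblast, adipocyte and leukocyte) the most abundant gene and the 2 with the smallest p-values; and the 3 genes nearest to each member by correlation. Other genes, such as neighbors, were chosen after their values were seen. The lists were cut by 4 genes that are not reported here. Alternatives were DESeq2, RLE or total-count scaling, library sizes without erythroid and muscle markers, no filter or a minimum of 10 counts in every library, the label number as a block, no fold threshold, each of 6 libraries left out, and, for levels, the length of the longest GENCODE M21 transcript.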

Additional observations from a re-analysis of the deposited data

How the results depend on the processing

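The 14 calls of the edgeR fit became 151 with DESeq2, 22 with total counts (10 higher, 12 lower, against 8 and 6), 210 with no filter on low counts, and 2 to 36 with each library left out; library sizes without the erythroid and muscle markers gave 21 (9 higher, 12 lower). The count of members called was 1 in the settings with all 6 libraries and 0 to 1 with a library left out. Partner genes called were 2 with DESeq2 and 3 with no filter (*Tmod1*, *Slc4a1* and *Scn4a*). The median log2 fold change of the members was 0.19 without DKO replicate 1 and at most 0.33 with another library left out. The difference between the erythroid pair and the other members was 0.07 to 0.53 with a library left out and 0.64 without *Sptbn5*, a setting chosen after seeing the data. The causes were not tested. The log2 fold change of *Sptbn4* took either sign, and those of the other 7 members kept their sign in all 13 settings. By CPM in place of RPKM, *Sptbn1* stood above *Sptan1* and *Ank2* above *Sptb*, and so they did per kilobase of the longest GENCODE transcript, an alternative added after seeing the data, where WT levels were 69.6 for *Sptbn1*, 65.8 for *Sptan1*, 12.5 for *Ank3*, 5.23 for *Ank2*, 2.62 for *Sptb*, 0.965 for *Ank1* and 0.637 for *Sptbn5*.

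With the label number as a block, 35 genes (15 higher, 20 lower), 1 member and 0 partner genes were called (edgeR; for partners without the block, 5 higher and 3 lower at an unadjusted p under 0.05, and 2 by DESeq2), the median over the members was 0.27 and the erythroid difference 0.34. The labels do not say what the number marks. Deviations from the group means of libraries that share a number across groups correlated at −0.02 to 0.23, and of those that do not at −0.15 to −0.10. Deviations from a mean cancel within each group, so these correlations depend on one another. They cannot show whether the number matters. Depth limits *Sptbn4*, whose counts were at most 24.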
